A study of Mus musculus with 6 samples.

Results

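Genes of cholesterol synthesis, fatty acid synthesis and sebaceous lipid were followed in mouse skin with and without a targeted allele of Hoxc13, which encodes a homeodomain protein needed for hair. The genes were chosen by name, with earlier results of these data known. In all, 34 symbols were listed in 3 subgroups, and 27 of them had a named probe set among the 16331 tested. The sterol subgroup held 14 of 18 listed genes, namely 12 enzymes and the regulators Srebf1 and Srebf2. The fatty acid subgroup held 10 of 11, and the sebaceous subgroup 3 of 5. Hmgcs1, Idi1, Fdps, Insig1, Acaca, Awat2 and Soat1 had no probe set named here and were not analysed.

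Dissected skin of 3 wild type mice and 3 mutant mice was compared on Affymetrix arrays. All 6 samples were on the C57BL/6 background, were labelled male and carry 5 dpn in their titles. The mutant genotype is given as a Hoxc13 knockout, Hoxc13tm1Mrc. Zygosity of the allele is not stated in the labels used here. Each value is a log2 level after RMA, so a difference of 1 is a 2-fold difference. RMA gave every array the same distribution, with a median of 7.405 over the tested probe sets, so the values show shares of the RNA pool, not totals.

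Cholesterol is built from acetyl-CoA through mevalonate, isoprenoid units, squalene and lanosterol, and the same acetyl-CoA is carboxylated, polymerised, elongated and desaturated to fatty acids. The transcription factors encoded by Srebf1 and Srebf2 are known to bind the promoters of these enzymes, often beside the factor NF-Y, and are held back by Insig proteins when sterol is plentiful. In skin, sebocytes, keratinocytes and dermal fat cells all make lipid, and sebum is rich in wax esters, triglycerides and cholesterol esters. Whole skin was measured, so fewer cells of a type and less RNA per cell cannot be told apart.

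Promoters are shown for 5 of the measured genes, to set their NF-Y and Sp1 motifs side by side. They were taken from RefSeq on GRCm38.p6, as the 250 bases before the gene start, 5′ to 3′ on the strand of the gene. Promoters were listed there for 25 of the 34 genes. Elovl3, Scd1, Sqle and Fa2h were among those without a listed promoter and could not be shown. Capitals mark CCAAT (the NF-Y box) and GGGCGG (the Sp1 box) on either strand, so that the reverse complements ATTGG and CCGCCC are also in capitals. In Fasn a CCAAT and an ATTGG overlap.
Mvk (chr5:114444019-114444268, plus strand): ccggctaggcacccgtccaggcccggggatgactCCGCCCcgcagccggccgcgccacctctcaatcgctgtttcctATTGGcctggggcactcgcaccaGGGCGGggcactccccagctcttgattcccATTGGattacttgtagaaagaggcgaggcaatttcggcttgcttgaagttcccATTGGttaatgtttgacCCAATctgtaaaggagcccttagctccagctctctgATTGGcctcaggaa
Mvd (chr8:122443423-122443672, minus strand): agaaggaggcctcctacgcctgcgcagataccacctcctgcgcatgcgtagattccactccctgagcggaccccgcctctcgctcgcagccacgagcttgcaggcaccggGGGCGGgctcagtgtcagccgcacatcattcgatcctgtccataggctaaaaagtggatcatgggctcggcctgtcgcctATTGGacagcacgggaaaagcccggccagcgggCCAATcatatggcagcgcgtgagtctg
Tm7sf2 (chr19:6067851-6068100, minus strand): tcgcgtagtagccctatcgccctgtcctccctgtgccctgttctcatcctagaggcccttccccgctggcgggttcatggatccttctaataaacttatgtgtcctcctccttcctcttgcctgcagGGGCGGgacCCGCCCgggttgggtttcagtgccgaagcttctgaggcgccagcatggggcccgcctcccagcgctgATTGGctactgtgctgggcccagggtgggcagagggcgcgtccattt
Fasn (chr11:120824548-120824797, minus strand): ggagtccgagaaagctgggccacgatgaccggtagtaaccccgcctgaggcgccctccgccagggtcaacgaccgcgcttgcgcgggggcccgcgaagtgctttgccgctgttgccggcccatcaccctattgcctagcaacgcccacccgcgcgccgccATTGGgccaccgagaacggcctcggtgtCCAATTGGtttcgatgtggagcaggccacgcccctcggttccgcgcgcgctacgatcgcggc
Scd3 (chr19:44203038-44203287, plus strand): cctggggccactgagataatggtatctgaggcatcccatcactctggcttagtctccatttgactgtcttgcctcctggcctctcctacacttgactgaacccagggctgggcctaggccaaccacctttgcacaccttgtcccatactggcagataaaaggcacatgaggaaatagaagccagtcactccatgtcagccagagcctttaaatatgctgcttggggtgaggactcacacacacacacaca

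Mvk is shown because it held the most CCAAT matches (5), Mvd and Tm7sf2 because they had the largest difference and the smallest p of the sterol enzymes, Fasn as the synthase of fatty acids, and Scd3 because it had the largest difference of all 27 genes and none of these motifs. All 10 measured sterol enzymes with a listed promoter held CCAAT in at least 1 promoter, in 10 of their 12 promoters. Of all 32851 promoters, 33.8% held it. In the fatty acid subgroup 2 of 7 promoters held CCAAT, those of Fasn and Elovl5. GGGCGG was present in 11 of the 12 sterol enzyme promoters and in 32.7% of all. The spelling TCACNCCAC of the sterol regulatory element was present in 1.05% of all promoters and in 1 of the 30 of the listed genes, that of Hmgcs1, which was not measured here. These matches are descriptions of letters in a window, not of bound sites.

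The mutant arrays did not agree closely with each other, and this bears on every result below. Mutant replicate 3 correlated with mutant replicates 1 and 2 at 0.989 and 0.990 across probe sets, against 0.997 between those arrays and 0.996 to 0.997 within the wild type. The Hoxc13 probe set read 9.63, 9.81 and 9.83 in wild type skin and 8.95, 8.75 and 9.74 in mutant skin. Its level in mutant replicate 3 thus lay within the wild type range, and the labels do not say if its probes lie in the altered part. Xist read between 11.15 and 11.67 on every array, and the 5 Y-linked probe sets looked at read between 2.98 and 4.89, which goes against the label male in both groups. Against 1.6% of all probe sets, markers of the hair shaft were called lower in 8 of 8 cases. Their mean level was 11.72 to 12.08 in wild type and 5.44 to 6.01 in mutant skin, with mutant replicate 3 the lowest.

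None of the 27 lipid genes passed the limma test with all 6 arrays (Benjamini-Hochberg adjusted p over all probe sets, threshold 0.05), where 1.6% of all probe sets were called lower and 0.478% higher. Their adjusted p ranged from 0.107 for Elovl3 to 0.979 for Srebf2. At an unadjusted p under 0.05 the values of 8 were lower and that of 1 was higher, against 5.94% and 8.44% of all probe sets. The values themselves leaned one way: 24 of the 27 differences were negative, against 42.4% of all probe sets, and the median difference was -0.277, against 0.0247. Because the genes were chosen with earlier results of these data known, such shares describe the list and are not independent evidence. In 8 genes every mutant array lay below every wild type array, against 7.82% of all probe sets, and in 0 genes every mutant array lay above, against 12.5%. The 95% interval of the difference excluded a 2-fold decrease in 23 of the 27. It reached that size in Scd1, Scd3, Elovl3 and Fa2h.

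**Figure D1:**
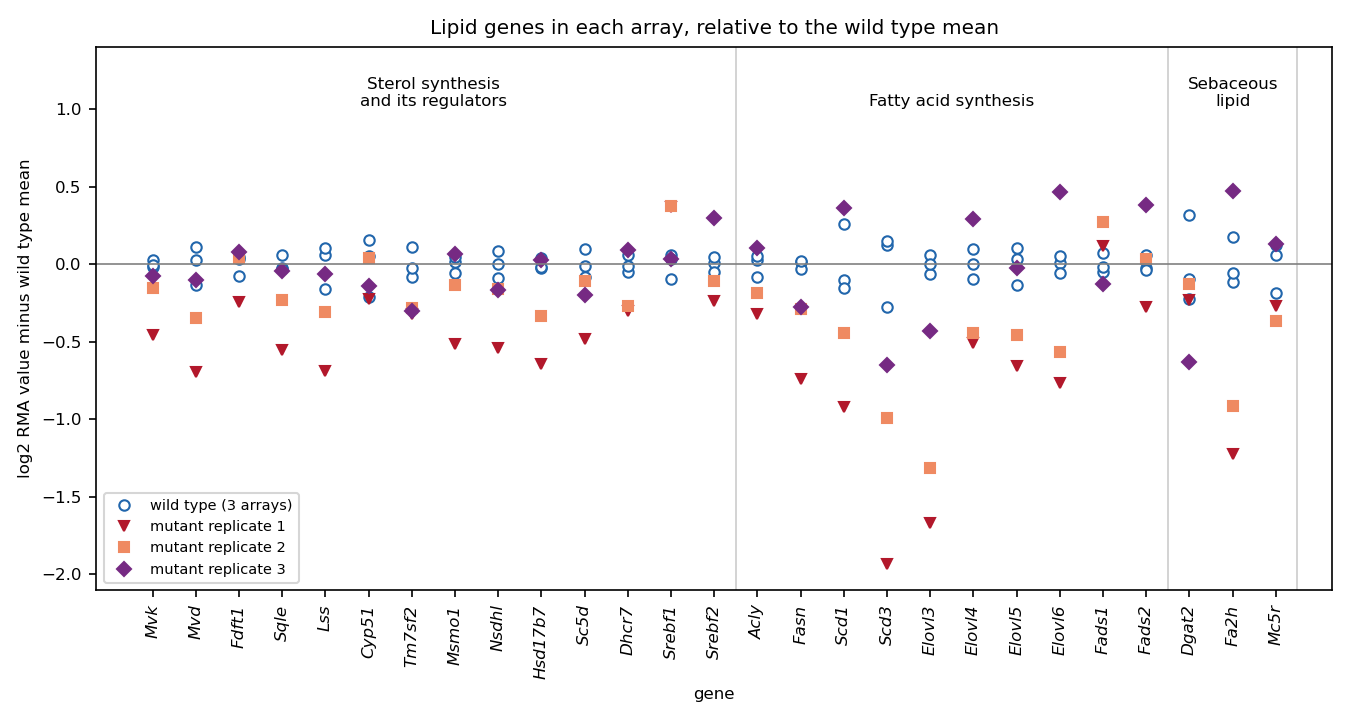
Log2 RMA value of each of the 27 lipid genes in each of the 6 arrays, after subtraction of that gene's wild type mean; circles are wild type arrays and filled symbols the 3 mutant arrays. Mutant replicate 1 is the lowest mutant array in 23 of the 27 genes, and mutant replicate 3 is the highest in 20.

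Within the mutant group the lipid genes moved together. Mutant replicate 1 held the lowest mutant value in 23 of 27 genes, against 31.9% of all probe sets, and mutant replicate 3 the highest in 20, against 44.7%. In 21 genes both mutant replicates 1 and 2 lay below all wild type arrays, against 20.5% of all probe sets. The value in mutant replicate 3 was below the wild type range in 10 genes, within it in 6 and above it in 11, against 26%, 34.1% and 39.9% of all probe sets. The share above the range was thus near that of all probe sets. The SD over the mutant arrays had a median of 0.27 over these genes, against 0.083 over the wild type arrays, and it was the larger in 24 of 27. Over all probe sets the median SDs were 0.12 and 0.082.

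Leaving out an array changed the picture in opposite ways. Without mutant replicate 3, 14 of the 27 genes were called lower and 1 higher, where 6.23% and 7.95% of all probe sets were. That fit rests on mutant replicates 1 and 2, which resembled each other most. Without mutant replicate 1 the median difference was -0.119, and 0 genes were called, where 0.912% of all probe sets were called lower and 0.0551% higher. With arrays weighted by their agreement, which gave mutant replicate 3 a weight of 0.234 against 1.227 to 1.441 for the others, 9 genes were called lower and 1 higher. These 10 were also called without mutant replicate 3. With those weights 5.14% of all probe sets were called lower and 6.37% higher.

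**Figure D2:**
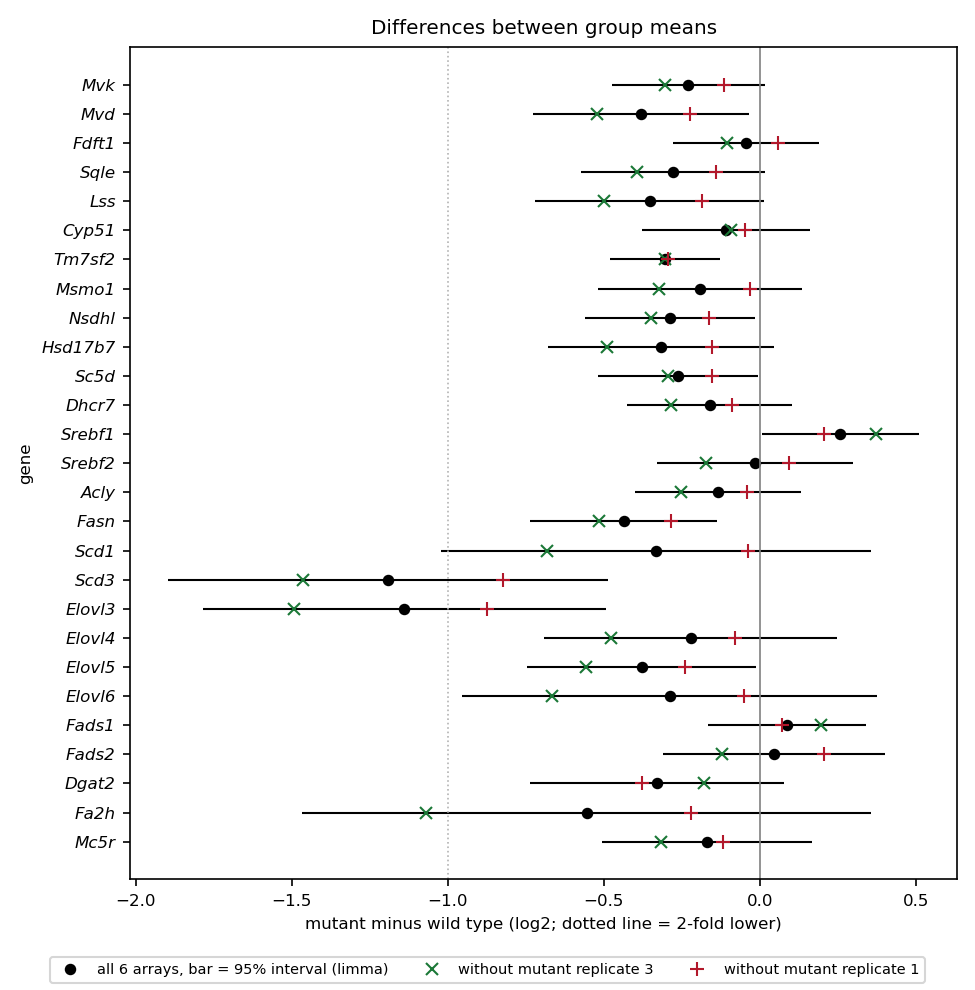
Mutant minus wild type difference of each lipid gene with all 6 arrays (points, with the 95% interval from limma), without mutant replicate 3 (crosses) and without mutant replicate 1 (plus signs). The sterol enzymes lie between -0.381 and -0.044 with all arrays, and Scd3 and Elovl3 stand farthest to the left.

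Every one of the 12 measured sterol enzymes had a lower mean in mutant skin, by small amounts that did not pass the test. Their differences ran from -0.381 to -0.044, with a median of -0.27, and all 12 intervals excluded a 2-fold decrease. Leaving out mutant replicate 1 brought their median to -0.146, and leaving out mutant replicate 3 brought it to -0.314. Mutant replicate 1 was the lowest mutant array in all 12, and the mean over the 12 genes was 9.22 there, 9.50 and 9.62 in mutant replicates 2 and 3, and 9.62 to 9.76 in the wild type arrays. In the wild type as well the enzymes shared a pattern, with the highest value in replicate 3 for 10 of 12, against 5370 of 16331 probe sets.

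In the mevalonate steps, Mvk, the kinase of mevalonate, read 8.88, 8.84 and 8.85 in wild type skin and 8.40, 8.71 and 8.78 in mutant skin. The groups did not overlap, at a difference of -0.23 (SE 0.11, adjusted p = 0.378). Mvd, a decarboxylase later in these steps, read 8.05, 7.89 and 8.13 in wild type and 7.33, 7.67 and 7.92 in mutant skin. Mutant replicate 3 overlapped the wild type, and the difference of -0.38 had a 95% interval from -0.73 to -0.03 (adjusted p = 0.305).

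At squalene and lanosterol, the synthase gene Fdft1 was nearly level between the groups (-0.04, interval -0.28 to 0.19). Sqle, the epoxidase that oxidises squalene, read 11.04, 11.04 and 11.13 in wild type and 10.52, 10.84 and 11.02 in mutant skin. Its groups did not overlap, but mutant replicate 3 lay just under the lowest wild type array, and the difference was -0.28 (adjusted p = 0.373). Lss, the cyclase that forms lanosterol, read 9.28, 9.07 and 9.33 in wild type and 8.54, 8.92 and 9.16 in mutant skin. It overlapped through mutant replicate 3, with a difference of -0.35 (adjusted p = 0.365).

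The later steps turn lanosterol into cholesterol. Cyp51, the demethylase, differed by -0.11 (interval -0.38 to 0.16). Tm7sf2, a sterol reductase, read 8.18, 8.23 and 8.37 in wild type and 7.94, 7.98 and 7.96 in mutant skin. It differed from the other enzymes in that the mutant arrays lay close together (SD 0.018), all below the wild type. Its difference of -0.30 (SE 0.08, interval -0.48 to -0.13) was the most precise of the sterol enzymes, and its adjusted p was 0.114.

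Msmo1, the methyl oxidase that acts after Cyp51, differed by -0.19 (interval -0.52 to 0.14), with mutant replicate 3 (11.21) above every wild type array. Nsdhl, a sterol dehydrogenase, read 10.30, 10.39 and 10.47 in wild type and 9.84, 10.22 and 10.22 in mutant skin, without overlap (-0.29, adjusted p = 0.322). Hsd17b7, which reduces the ketone left by that step, read 9.46, 9.47 and 9.53 in wild type and 8.84, 9.15 and 9.52 in mutant skin. Mutant replicate 3 lay among the wild type arrays, and the difference was -0.32 (adjusted p = 0.405).

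Sc5d, a desaturase of the sterol ring, read 10.41, 10.48 and 10.60 in wild type and 10.02, 10.39 and 10.30 in mutant skin, again without overlap (-0.26, adjusted p = 0.338). Dhcr7, which encodes the last reductase of this route, differed by -0.16 (interval -0.42 to 0.10). Without mutant replicate 3, the sterol enzymes Mvd, Sqle, Lss, Tm7sf2, Hsd17b7 and Dhcr7 were called lower, with differences of -0.52, -0.39, -0.50, -0.30, -0.49 and -0.29. Of these, Mvd, Tm7sf2 and Hsd17b7 were also called with array weights.

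The regulators did not show the lower values of the enzymes as a pair. Srebf1, whose product drives fatty acid genes more than sterol genes in many tissues, read 9.66, 9.51 and 9.64 in wild type and 9.97, 9.98 and 9.64 in mutant skin. Mutant replicates 1 and 2 lay above the wild type and mutant replicate 3 within it, with a difference of 0.26 (interval 0.01 to 0.51, adjusted p = 0.339). Without mutant replicate 3 it was called higher (0.37, adjusted p = 0.0178). Srebf2, whose product mainly drives sterol genes, read 9.16, 9.20 and 9.10 in wild type and 8.92, 9.04 and 9.45 in mutant skin. The mutant arrays lay on both sides of the wild type, and the difference of -0.015 (interval -0.33 to 0.30) changed sign when wild type replicate 2 (0.0075), mutant replicate 1 (0.095) or mutant replicate 2 (0.0325) was left out.

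**Figure D3:**
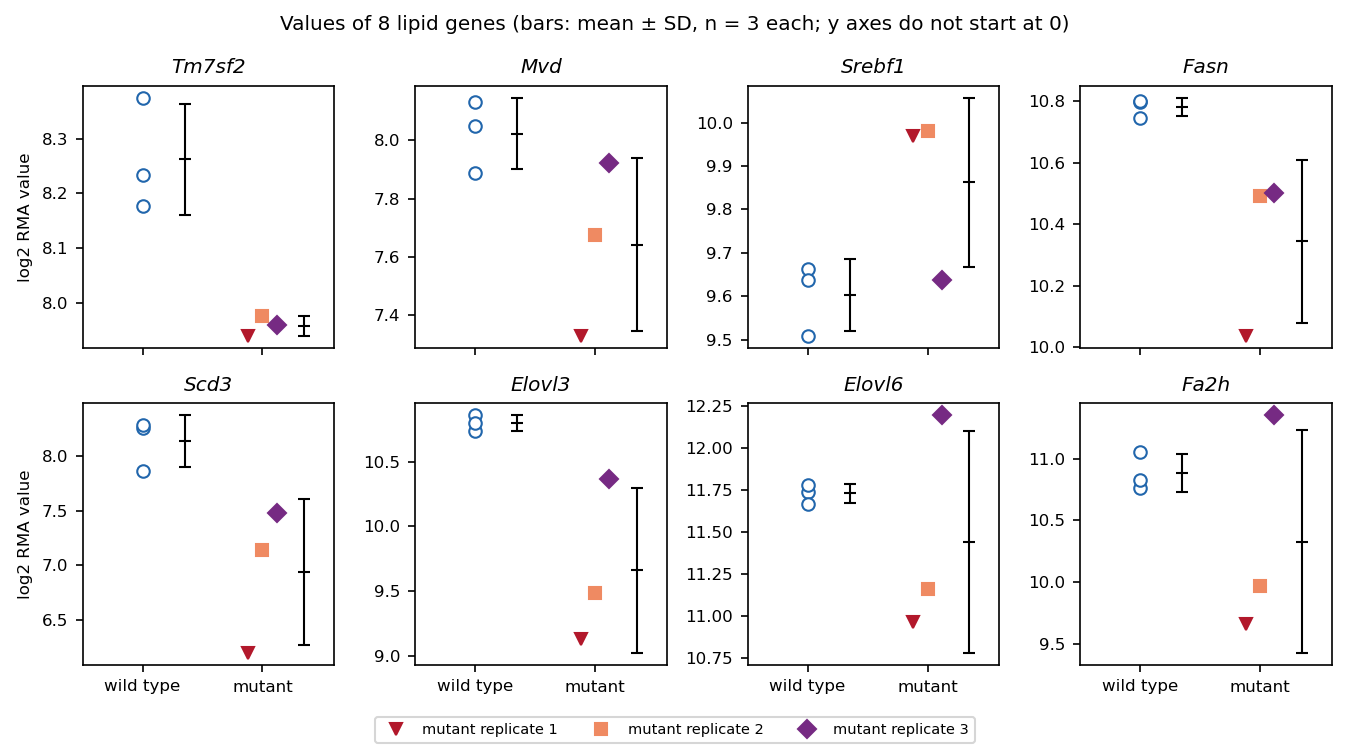
Log2 RMA values of Tm7sf2, Mvd, Srebf1, Fasn, Scd3, Elovl3, Elovl6 and Fa2h in each array, with the mean and SD of each group (n = 3) beside the points. Tm7sf2, Fasn, Scd3 and Elovl3 show no overlap between the groups, while in Elovl6 and Fa2h mutant replicate 3 lies above the wild type and the other mutant arrays lie below it.

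The largest differences among the lipid genes were those of Scd3 and Elovl3, both over 2-fold lower in mean. Elovl3, an elongase of very long saturated and monounsaturated chains that is strongly expressed in sebaceous gland, read 10.86, 10.74 and 10.80 in wild type and 9.13, 9.48 and 10.37 in mutant skin. All mutant arrays lay below all wild type arrays, with means of 10.80 ± 0.06 and 9.66 ± 0.64 (SD, n = 3 each). The difference of -1.14 (2.2-fold lower, SE 0.28, interval -1.79 to -0.49) did not pass the test with all arrays (adjusted p = 0.107). The difference grew to -1.49 when mutant replicate 3 was left out (adjusted p = 1.79e-04) and shrank to -0.87 when mutant replicate 1 was.

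Scd3, a desaturase of the stearoyl-CoA desaturase family that is known from sebocytes, read 8.26, 7.86 and 8.28 in wild type and 6.20, 7.14 and 7.48 in mutant skin. The groups did not overlap, and the difference of -1.19 (2.28-fold lower, SE 0.30, interval -1.90 to -0.49) had an adjusted p of 0.12. Scd1, the main skin desaturase of the same family, read 12.03, 12.39 and 11.98 in wild type and 11.21, 11.69 and 12.50 in mutant skin. Its mutant arrays lay on both sides of the wild type, with a difference of -0.33 (interval -1.02 to 0.36). The genes Scd1 and Scd3 lie in a row with Scd2 and Scd4 on chromosome 19 and are close in sequence. The value of either alone is therefore uncertain, and whether their probes detect each other's transcripts was not tested. Scd2, which was not among the listed genes, was lower in mutant skin without overlap of the groups (-0.34, adjusted p = 0.27).

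Of the enzymes that make palmitate, Acly, which supplies acetyl-CoA from citrate, differed by -0.13 (interval -0.40 to 0.13), and mutant replicate 3 (10.97) was its highest array. Fasn, the fatty acid synthase, read 10.79, 10.75 and 10.80 in wild type and 10.04, 10.49 and 10.50 in mutant skin. The wild type arrays lay close together (SD 0.03), all above the mutant arrays, and the difference was -0.44 (1.35-fold lower, SE 0.13, adjusted p = 0.174). Fasn was called without mutant replicate 3 (-0.52, adjusted p = 0.0331) and with array weights (adjusted p = 0.0332).

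The other elongases were split by mutant replicate 3. Elovl6, which extends palmitate to stearate, read 11.74, 11.67 and 11.78 in wild type and 10.97, 11.16 and 12.20 in mutant skin. Elovl4, which makes the ultra-long chains of epidermal ceramides, read 11.90 to 12.10 in wild type and 11.49, 11.55 and 12.29 in mutant skin. In both genes mutant replicate 3 exceeded every wild type array and the other mutant arrays lay below all of them, and the differences of -0.29 and -0.22 had intervals that included zero.

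Elovl5, an elongase of polyunsaturated chains, read 11.19, 11.36 and 11.43 in wild type and 10.67, 10.87 and 11.30 in mutant skin. Only mutant replicate 3 overlapped the wild type, at a difference of -0.38 (adjusted p = 0.333). Without mutant replicate 3, Elovl4, Elovl5 and Elovl6 were called lower at -0.48, -0.56 and -0.67, and Scd1 and Scd3 at -0.68 and -1.46. Without mutant replicate 1 the differences of Elovl4, Elovl5 and Elovl6 were -0.08, -0.24 and -0.05 and those of Scd1 and Scd3 were -0.04 and -0.82, none of them called.

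The front-end desaturases of polyunsaturated fatty acids did not follow. Fads1 differed by 0.09 (interval -0.17 to 0.34), with 8.51 and 8.66 in mutant replicates 1 and 2 above the wild type range of 8.34 to 8.46 and 8.26 in mutant replicate 3 below it. Fads2 differed by 0.05 (interval -0.31 to 0.40), and mutant replicate 3 (8.40) was its highest array. Neither was called in any of the fits.

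Among the sebaceous genes, Fa2h had the widest spread of all 27. This hydroxylase, which makes the hydroxylated fatty acids of sebum and of epidermal and follicular ceramides, read 11.06, 10.76 and 10.82 in wild type and 9.65, 9.97 and 11.36 in mutant skin. Mutant replicates 1 and 2 lay below and mutant replicate 3 above every wild type array, so that the difference of -0.56 had an interval from -1.47 to 0.36 (adjusted p = 0.564). Leaving out mutant replicate 3 gave -1.07 (adjusted p = 0.0017), leaving out mutant replicate 1 gave -0.22 (adjusted p = 0.902) and leaving out mutant replicate 2 gave -0.38 (adjusted p = 0.815).

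Dgat2, which forms triglyceride in sebocytes and fat cells alike, showed another order. It read 10.23, 10.37 and 10.78 in wild type and 10.23, 10.34 and 9.83 in mutant skin. Here mutant replicate 3 was the lowest array, and the difference of -0.33 had an interval from -0.74 to 0.08. Mc5r, the melanocortin receptor of sebocytes, read 6.81, 7.05 and 7.12 in wild type and 6.73, 6.63 and 7.12 in mutant skin, a difference of -0.17 (interval -0.51 to 0.17). The median of these 3 genes was -0.329, against -0.311 in the fatty acid subgroup and -0.245 in the sterol subgroup with its regulators. The order of these medians was not stable. Without mutant replicate 1 they were -0.219, -0.0649 and -0.127, without mutant replicate 3 they were -0.318, -0.536 and -0.304, and without wild type replicate 3 the sebaceous median was -0.17.

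Other genes around these pathways, listed by name, had medians closer to that of all probe sets with all arrays. The lists are unlike the members: the other sterol genes include exporters, transporters and regulators beside enzymes, and the other sebaceous genes include duct and progenitor markers. Of 15 other measured sterol genes 0 were called, with 3 lower and 0 higher at an unadjusted p under 0.05. The smallest p belonged to Abca1, a cholesterol exporter (-0.38, adjusted p = 0.126), and the median of -0.0737 moved to -0.0993 when mutant replicate 3 was left out and to -0.0297 when mutant replicate 1 was. Against 1.6% of all probe sets, 1 of 21 other fatty acid genes was called lower. This was Acsl4, which activates arachidonate, and it read 7.50, 7.65 and 7.68 in wild type and 7.14, 7.26 and 7.13 in mutant skin (-0.43, SE 0.08, adjusted p = 0.0427). The groups did not overlap, but the call was lost without any single array other than mutant replicate 3, with the replicate block and with a trend in the prior (adjusted p = 0.0573 to 0.201). The median of this list was -0.054. It turned positive (0.0132) when mutant replicate 1 was left out, and leaving out mutant replicate 3 gave -0.149.

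Of 15 other sebaceous genes 2 were called higher and 0 lower with all arrays, where 0.478% and 1.6% of all probe sets were. The median of this list was 0.05. That median turned negative (-0.0348) when mutant replicate 3 was left out, and leaving out mutant replicate 1 gave 0.097. Lrig1, a marker of progenitors in the upper follicle near the sebaceous gland, read 9.75, 9.72 and 9.75 in wild type and 10.28, 10.14 and 10.10 in mutant skin (0.43, SE 0.08, adjusted p = 0.0342). Krt79, a keratin of the sebaceous duct, read 12.30, 12.28 and 12.27 in wild type and 12.72, 12.71 and 13.04 in mutant skin (0.54, SE 0.10, adjusted p = 0.0435). In both genes all mutant arrays lay above all wild type arrays. Both calls were lost with the replicate block and without any single array other than mutant replicate 3 (adjusted p = 0.107 to 0.155 for Lrig1 and 0.0868 to 0.192 for Krt79). On the array of mutant replicate 3, 11 of these 15 genes exceeded every wild type value, as did 39.9% of all probe sets. Of 9 measured barrier lipid genes of the epidermis 0 were called, with Pnpla1 at the smallest p (-0.42, adjusted p = 0.134) and a median of 0.07 (0.034 without mutant replicate 3 and 0.0463 without mutant replicate 1). In the fit that left out mutant replicate 3, 6.23% of all probe sets were called lower and 7.95% higher. Called lower were 2 of 15 other sterol, 4 of 21 other fatty acid, 2 of 15 other sebaceous and 2 of 9 barrier lipid genes. Called higher were 0, 3, 3 and 1. The other sebaceous genes called lower were Cidea (-0.70, adjusted p = 0.00371) and Plin2 (-0.40, adjusted p = 0.0118). Those called higher were Plin5 (0.54, adjusted p = 0.0039), Lrig1 and Krt79.

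**Figure D4:**
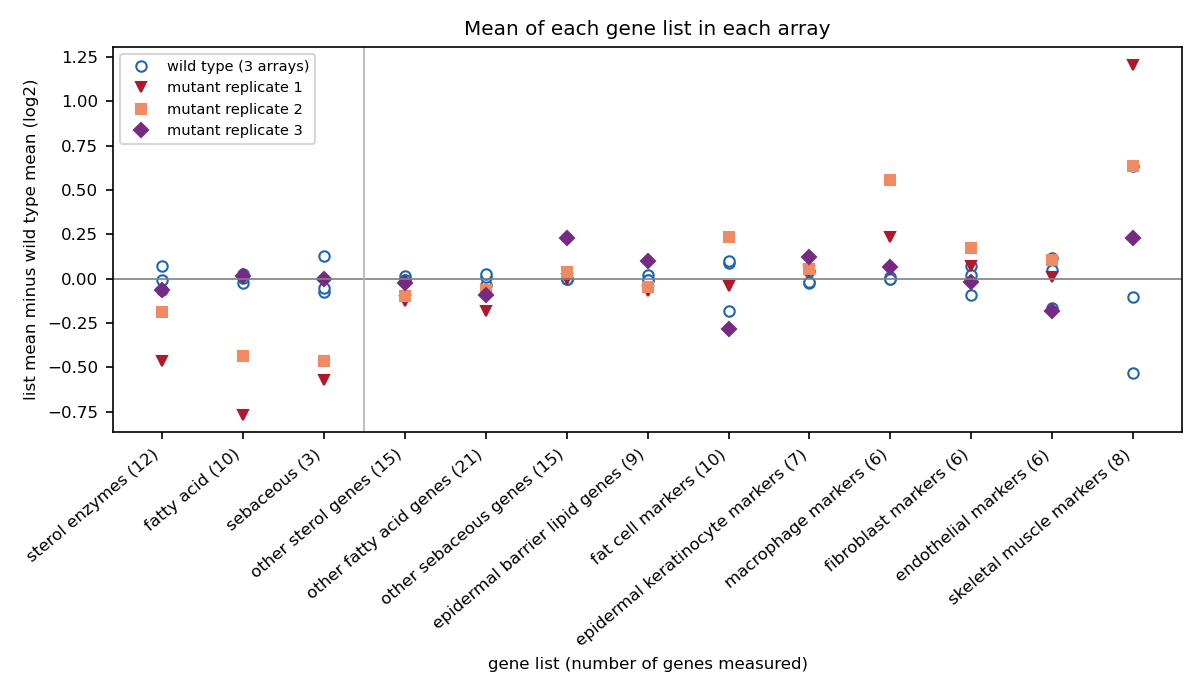
Mean log2 RMA value of each gene list in each array, minus the mean of the wild type arrays, with the number of genes measured in brackets; circles are wild type arrays and filled symbols the 3 mutant arrays. The sterol enzyme, fatty acid and sebaceous means are low in mutant replicates 1 and 2, and the fat cell mean is lowest in mutant replicate 3.

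Levels of other cell types were read from marker lists beside these results. Fat cells also make fatty acids and triglyceride, and of 10 measured fat cell markers 0 were called. Their mean was 10.15 to 10.43 in wild type and 10.05 to 10.57 in mutant skin. Against the average of mutant replicates 1 and 2, mutant replicate 3 was lower in all 10. It was higher than that average in 23 of the 27 lipid genes and in 8785 of all 16331 probe sets. The 10 differences split into 5 negative and 5 positive. Lep, the leptin gene, read 8.30, 8.80 and 9.44 in wild type and 6.76, 8.16 and 7.30 in mutant skin. Its groups did not overlap, with mutant replicate 1 the lowest, and the difference of -1.44 did not pass (adjusted p = 0.139). Adipoq, the adiponectin gene, read 12.33, 12.66 and 12.62 in wild type and 13.07, 13.21 and 12.48 in mutant skin. Its groups overlapped through mutant replicate 3, at a difference of 0.38 (adjusted p = 0.412). Without mutant replicate 3, 0 fat cell markers were called lower and 3 higher, where 6.23% and 7.95% of all probe sets were. These 3 were Adipoq, Cidec and Retn (adjusted p = 0.0127, 0.0162 and 0.00274). Epidermal keratinocyte markers had means of 11.62 to 11.69 in wild type and 11.69 to 11.77 in mutant skin, with 0 of 7 called. Of these, Krt2 read 3.61 to 4.04, near the Y-linked probe sets, which reached 4.89 with Usp9y and 3.93 without it.

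Macrophage markers had means of 8.53 to 8.54 in wild type and 8.60 to 9.09 in mutant skin, with 0 of 6 called. Skeletal muscle markers spread from 10.11 to 11.28 in wild type and from 10.87 to 11.85 in mutant skin. Of these 8 markers Myh2 was called higher with all arrays, as were 0.478% of all probe sets. Without mutant replicate 3, 3 of the 6 macrophage and 3 of the 8 muscle markers were called higher, and 0 of either lower. In that fit 7.95% of all probe sets were called higher and 6.23% lower. None of the 6 fibroblast or the 6 endothelial markers was called with all arrays. Leaving out mutant replicate 3 brought 1 fibroblast marker, Pdgfra, to a higher call and 1 keratinocyte marker, Krt2, to a lower one. The part of these cell types, and of mutant replicate 3, in the lipid gene values was not tested.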

How the data were processed

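Total RNA of dissected skin was measured in 3 wild type and 3 mutant samples, on Affymetrix arrays read from the 3′ end of transcripts, per the labels' protocols. The log2 values were deposited by the authors after RMA, which the submitters' processing notes name without a version. That method subtracts background, equalises the distributions of the arrays and compresses differences near background. Arrays have no read depth, and their number limits the precision.

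Of 16395 probe sets, 64 controls were left out and 16331 tested; 15644 had 1 gene symbol in the array annotation and 687 had none. The comparison used limma 3.58.1 under R 4.3.3 (lmFit, eBayes, two-sided, no block, no filter), with Benjamini-Hochberg adjustment over all probe sets at 0.05, which is what called means. Intervals at 95% used 7.53 degrees of freedom. The script was tested on 20 simulated data sets with 200 changed probe sets each, drawn without shifts shared by the genes of an array. It called 1.9% of changes of 0.25 log2, 41% of 0.5, 85.1% of 1 and 98.2% of 2. Of its calls 4.03% were false. Small differences such as those of most lipid genes would thus often go uncalled. Figures used matplotlib 3.10.9.

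Members and lists were chosen with earlier results of these data known. Named were all measured members and every called gene of the other pathway lists, or else the gene with the smallest p. After their values were seen, Scd2, Cidea, Plin2 and Plin5 were added from the other pathway lists. Adipoq, Lep, Cidec, Retn, Krt2, Pdgfra and Myh2 were added in the same way from the marker lists. Deviations of same-numbered arrays from their group means correlated at 0.036, -0.1193 and -0.0873, which cannot show whether arrays shared a litter or a batch. Alternatives were a filter on low values, repeated quantile normalisation, median centring, a trend with robust prior, array weights, a replicate block and leaving out each array.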

Additional observations from a re-analysis of the deposited data

How the results depend on the processing

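The 27 lipid genes gave 0 calls, as with all arrays, under the filter on low values, repeated quantile normalisation, median centring, the trend with robust prior, the replicate block, and without any single array other than mutant replicate 3. With array weights 4 sterol, 5 fatty acid and 1 sebaceous gene were called, and leaving out 1 array gave 0 to 7, 0 to 7 and 0 to 1. Over all probe sets the count of 339 became 1880 with array weights, 197 with the replicate block, and 151 to 2316 without 1 array. Each fit without 1 array also had fewer arrays. The cause of these changes in count was not tested.

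For the other pathway lists these alternatives were added after seeing the data. The counts with array weights were 2 (other sterol), 6 (other fatty acid), 4 (other sebaceous) and 1 (barrier lipid). Without 1 array they ran from 0 to 2, 0 to 7, 0 to 5 and 0 to 3. The replicate block gave 0 for the other fatty acid and other sebaceous lists, and the trend with robust prior gave 0 for the other fatty acid list. Same-numbered arrays had deviations correlated at 0.036, -0.1193 and -0.0873. The largest value of any pairing was 0.2369, between wild type replicate 3 and mutant replicate 2. Deviations from means of 3 arrays depend on each other, so these values cannot show whether arrays shared a litter or a batch.

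Signs changed for Fads2 with array weights (-0.0866) and without 1 array (-0.12 to 0.207), and without 1 array for Fdft1 (-0.104 to 0.0577), Srebf2 (-0.172 to 0.095) and Fads1 (-0.00583 to 0.195). All 27 lipid genes read at least 6.20 on every array, above the lower quartile of 5.5 used as the filter. Signal was not separated from background by detection calls.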
